A study of Homo sapiens with 6 samples.

Results

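The YAP/TEAD axis was followed through 10 genes in UWB1.289 cells with knockdown of the acetyltransferase HBO1. They are 4 factors (YAP1, WWTR1, TEAD1 and TEAD4), 3 direct targets (CCN1, CCN2 and ANKRD1) and 3 inhibitors or feedback genes (AMOTL2, LATS2 and AJUBA). The 10 were chosen by name, under current symbols, so that CYR61 is CCN1 and CTGF is CCN2. All RefSeq transcript values of a gene were summed. All 10 were found among 27001 named genes, and all 10 passed the filter of a mean of at least 10 normalized counts, which left 15184 genes for testing.

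RNA-seq was done on 3 shHBO1 libraries and 3 shCTRL libraries. UWB1.289 is an established human cell line, grown from an ovarian carcinoma and without functional BRCA1. The shHBO1 cells had been transduced with a lentiviral short hairpin RNA against HBO1, encoded by KAT7, and the shCTRL cells with a control hairpin. Cells of both groups were exposed to polybrene and then to puromycin for selection. The sources used here do not give the number of hairpins, so other effects of a hairpin and loss of HBO1 cannot be told apart. Replicates carry the numbers 1, 2 and 3 in each group. No label calls them separate cultures, so the p-values describe the spread of these 6 libraries, and that spread may be technical.

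YAP1 and WWTR1, whose product is TAZ, encode coactivators that bind DNA through the TEAD transcription factors. When the Hippo kinases are active, the LATS kinases phosphorylate both proteins, which are then held in the cytoplasm or degraded. When the kinases are inactive, as in sparse, stretched or serum-fed cells, the coactivators enter the nucleus and switch on genes such as CCN1, CCN2 and ANKRD1. Some of the targets act back as brakes: AMOTL2 holds the coactivators at junctions and LATS2 is itself one of the kinases. Control is mostly at the protein level, so mRNA levels of YAP1 and WWTR1 do not by themselves report the activity of the pathway.

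The TEAD factors bind a short core, GGAATG. Promoter windows from RefSeq (GRCh38.p14) were available for 7 of the 10 genes, 10 windows in all, and the 250 bases before each start were searched on both strands. The core was present in 5 of the 10 windows, 1 window each of 5 genes (CCN2, ANKRD1, YAP1, AMOTL2 and AJUBA), against 11.9% of 35116 RefSeq windows of the same length. The genes had been chosen as YAP/TEAD factors and targets, so this share is a description and was not tested. The windows of CCN2 and ANKRD1 are shown because these genes had the highest fold changes of the 10. Each is printed 5′ to 3′ on the gene's strand, with the cores in capitals. The CCN2 window lies at chr6:131951373-131951622 and the ANKRD1 window at chr10:90921088-90921337, both on the minus strand.
CCN2: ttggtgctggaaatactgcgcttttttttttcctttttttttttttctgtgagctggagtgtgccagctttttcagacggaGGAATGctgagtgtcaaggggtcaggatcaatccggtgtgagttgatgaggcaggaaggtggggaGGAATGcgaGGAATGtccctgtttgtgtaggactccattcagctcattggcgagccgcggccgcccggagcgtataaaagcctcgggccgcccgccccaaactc
ANKRD1: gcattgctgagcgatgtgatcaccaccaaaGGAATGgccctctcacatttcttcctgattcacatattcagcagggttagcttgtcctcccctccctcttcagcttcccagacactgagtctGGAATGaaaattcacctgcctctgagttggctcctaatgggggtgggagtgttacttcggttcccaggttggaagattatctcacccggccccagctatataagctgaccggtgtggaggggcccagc

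CCN2 held 3 cores, which began 169, 104 and 95 bases before the start, and 0.0826% of windows had 3 or more. ANKRD1 held 2, at 220 and 128 bases before the start, where 0.94% of windows had 2 or more. YAP1 held 1 at 162 bases, AMOTL2 held 1 at 69 bases before its second listed start and AJUBA held 1 at 59 bases before its second listed start. The search found 0 cores in the other windows of AMOTL2 and AJUBA and in those of WWTR1 and LATS2. TEAD1, TEAD4 and CCN1 had no entry. The pattern TGANTCA, a looser form of the AP-1 motif that allows any base in the middle, was also searched. It occurred once, as TGATTCA in ANKRD1 at 195 bases before the start, and in 6.57% of all windows. The CArG box of the serum response factor was in 0 of the 10 windows and in 1.16% of all windows. The matches did not overlap each other. They are matches of letters and were not measured as binding sites.

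The libraries held 35940400 to 39908703 recovered reads. KAT7 had 1008, 872 and 784 normalized counts in shHBO1 replicates 1, 2 and 3, against 3616, 3952 and 3554 in shCTRL replicates 1, 2 and 3. It was at 23.9% of its shCTRL level, with a log2 fold change of −2.07 (SE 0.11, limma adjusted p = 0.00123). By the exact two-sided permutation test p was 0.1, and no smaller p is possible with 3 libraries a group. On the first principal component, with 44.4% of the variance, the number 3 libraries of both groups stood apart from the other 4. Of 13 epithelial and serous ovarian markers, summed to 328600 to 387940 normalized counts in shHBO1 and 349630 to 410000 in shCTRL, all had a mean of at least 10. WT1, a factor of serous tumours, was near the floor at 14.1 ± 6.53 in shHBO1 and 13.4 ± 13.1 in shCTRL (SD, n = 3 each). Fibroblast and endothelial markers summed to 2196 to 2718 in shHBO1 and 2024 to 2988 in shCTRL over 12 genes, with DCN and PDGFRA at 0 in all 6 libraries. A count of 0 is 0 recovered reads, and the expected number may still be up to 3 reads per library. Leukocyte markers summed to 684 to 786 in shHBO1 and 694 to 773 in shCTRL over 8 genes.

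Limma and edgeR called 0 of the tested cell type markers without or with the replicate number as a block. Of the 13 epithelial markers, 2 had an unadjusted limma p under 0.05 without the block and 5 with it, where 3.54% and 11.3% of all tested genes did. Of the epithelial markers, 8 were lower in shHBO1 in all 3 numbered pairs, as were 17.1% of all tested genes, and 0 were higher in all 3. DESeq2 called WFDC2 lower without the block, and WFDC2, MUC1 and MSLN lower with it, with log2 fold changes of −0.43, −0.60 and −0.37. Of all tested genes it called 0.125% without the block and 0.975% with it. The folate receptor FOLR1 had a log2 fold change of −0.84 (SE 0.36). Of the 7 tested fibroblast and endothelial markers, 1 had such a p without the block and 4 with it. DESeq2 called the endothelial cadherin CDH5 lower with the block, at a log2 fold change of −0.46. KDR had 0.75 (SE 0.42), and the collagens COL1A1 and COL1A2 had 0.27 (SE 0.19) and 0.33 (SE 0.29). Of the 5 tested leukocyte markers, 1 had such a p without the block and 1 with it, the monocyte marker CD14. It had 16.8, 24.4 and 14.5 normalized counts in shHBO1, against 39.6, 38.4 and 38.8 in shCTRL, lower without overlap (log2 fold change −1.06, SE 0.30, limma adjusted p with the block 0.270). PTPRC, CD68 and LYZ had −0.26 (SE 0.58), 0.08 (SE 0.16) and −0.28 (SE 0.73). The part of these markers in the values of the 10 genes was not tested.

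The question was whether the YAP/TEAD genes differed between shHBO1 and shCTRL cells. ANKRD1 and CCN2 had the highest estimates, at 1.32-fold and 1.23-fold of the shCTRL mean, and each was higher in shHBO1 in all 3 numbered pairs. The factors YAP1, WWTR1, TEAD1 and TEAD4 had group means within 2% of each other. None of these differences passed a limma adjusted p of 0.05: 0 of the 10 genes were called, where 0.00659% of all tested genes were called. At an unadjusted p under 0.05 the count was also 0 of 10, where 3.54% of all genes passed, and on the recovered reads edgeR and DESeq2 called 0 of 10, where edgeR called 0.00659% and DESeq2 0.125% of all genes. The groups overlapped in all 10 genes, whereas 8.93% of all tested genes had groups that did not overlap (4.49% with shHBO1 higher and 4.44% with shHBO1 lower).

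**Figure D1:**
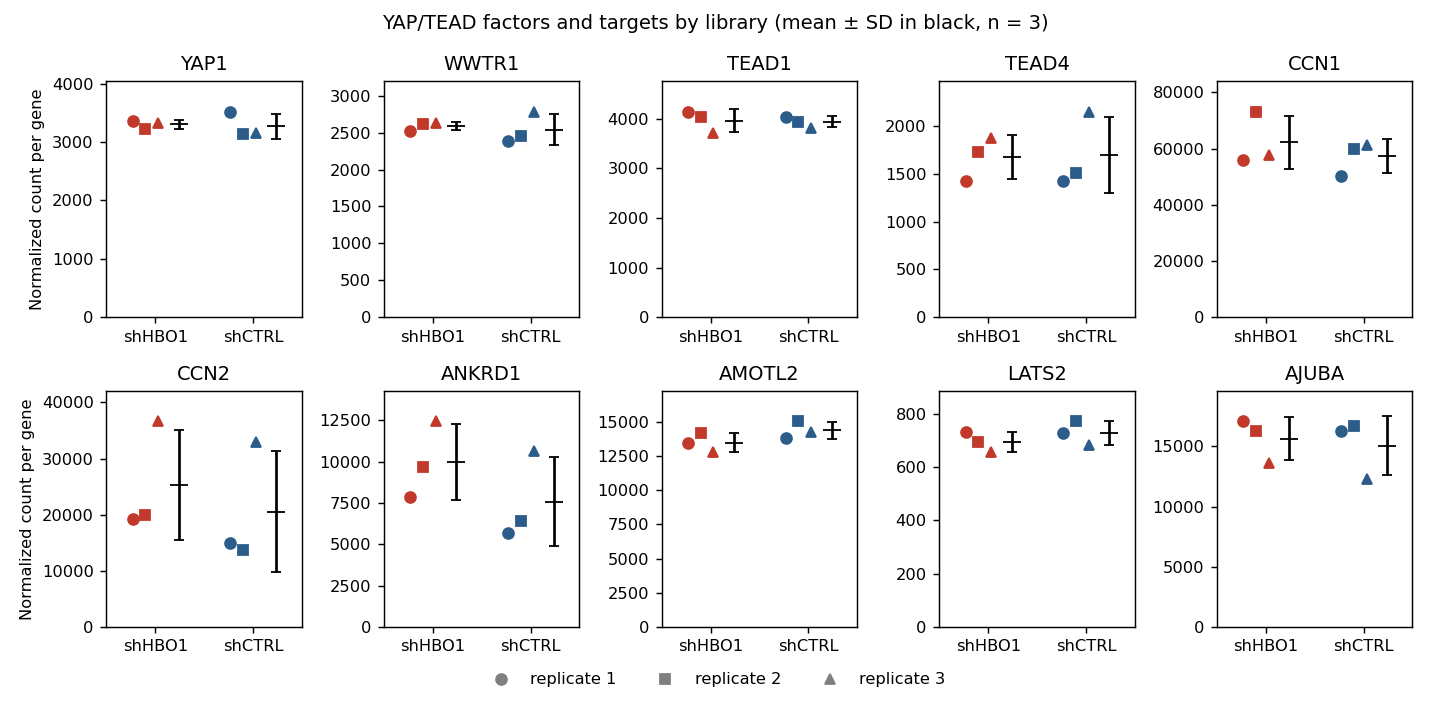
Normalized counts (vertical axis, from 0) of the 10 genes in each library, shHBO1 in red and shCTRL in blue, with circles, squares and triangles for replicates 1, 2 and 3 and the mean ± SD in black (n = 3). The triangles of CCN2 and ANKRD1 lie above the other points of their group in both groups, and the 2 groups overlap in every panel.

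The coactivators and the TEAD factors were close to level. YAP1 had 3356, 3220 and 3333 normalized counts in shHBO1 replicates 1, 2 and 3, against 3519, 3136 and 3152 in shCTRL replicates 1, 2 and 3. The shHBO1 values lay inside the shCTRL range, with 0.02 as log2 fold change (SE 0.075, 95% confidence interval from −0.16 up to 0.19). WWTR1 had 2523, 2612 and 2636 in shHBO1, against 2389, 2452 and 2782 in shCTRL. Here too the shHBO1 values lay inside the shCTRL range, with a log2 fold change of 0.03 (SE 0.082, interval −0.16 to 0.22). TEAD1, a widely expressed member of the family, had 4136, 4033 and 3702 in shHBO1, against 4040, 3938 and 3818 in shCTRL. Its log2 fold change was 0.0078 (SE 0.072, interval −0.16 to 0.18). TEAD4 had 1424, 1727 and 1870 in shHBO1, against 1423, 1512 and 2147 in shCTRL. The number 3 library was the highest of each group, and the log2 fold change was −0.0019 (SE 0.17, interval −0.40 to 0.40), turning to 0.0049 with TMM scaling and 0.00028 with quantile normalization. The intervals of YAP1, WWTR1 and TEAD1 reached at most 0.22 from 0 on the log2 scale, and differences smaller than that could not be told from none.

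CCN1, CCN2 and ANKRD1 had the highest estimates of the 10. CCN1 encodes a secreted matricellular protein that signals through integrins and was the most abundant of the 10. It had 55929, 73045 and 57804 normalized counts in shHBO1 replicates 1, 2 and 3, against 50354, 59994 and 61326 in shCTRL replicates 1, 2 and 3. The highest value was in shHBO1 replicate 2 and the groups overlapped, with a log2 fold change of 0.12 (SE 0.13, interval −0.17 to 0.41). Without shHBO1 replicate 2 it was −0.0038, so that library set the sign.

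CCN2, a related matricellular protein tied to fibrosis, had 19136, 20009 and 36603 in shHBO1, against 14978, 13733 and 32927 in shCTRL. In both groups replicate 3 was far above replicates 1 and 2, by 1.87-fold in shHBO1 and 2.29-fold in shCTRL over their mean. The log2 fold change was 0.35 (SE 0.37, interval −0.50 to 1.197). Within pairs, CCN2 in shHBO1 was 1.28, 1.46 and 1.11 times its shCTRL level for numbers 1, 2 and 3.

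ANKRD1, a nuclear and sarcomeric ankyrin-repeat protein widely used as a readout of YAP activity, had 7862, 9694 and 12439 in shHBO1, against 5688, 6398 and 10676 in shCTRL. Replicate 3 was again the highest of each group, 1.42-fold over the mean of the other replicates in shHBO1 and 1.77-fold in shCTRL. The log2 fold change was 0.43 (SE 0.25, interval −0.15 to 1.01). The within-pair ratios, shHBO1 over shCTRL, were 1.38, 1.52 and 1.17 for numbers 1, 2 and 3.

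The inhibitors and feedback genes had estimates near 0. AMOTL2, a junctional scaffold that sequesters YAP1, had 13481, 14201 and 12806 in shHBO1, against 13820, 15037 and 14297 in shCTRL. It was lower in shHBO1 in every numbered pair, and the log2 fold change was −0.09 (SE 0.070, interval −0.26 to 0.07). LATS2 had 731, 693 and 658 in shHBO1, against 730, 772 and 683 in shCTRL, with a log2 fold change of −0.07 (SE 0.099, interval −0.30 to 0.16). AJUBA, a LIM protein that binds and restrains LATS kinases, had 17073, 16273 and 13620 in shHBO1, against 16244, 16698 and 12273 in shCTRL. Its replicate 3 was the lowest of each group, and its log2 fold change was 0.06 (SE 0.14, interval −0.26 to 0.38).

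**Figure D2:**
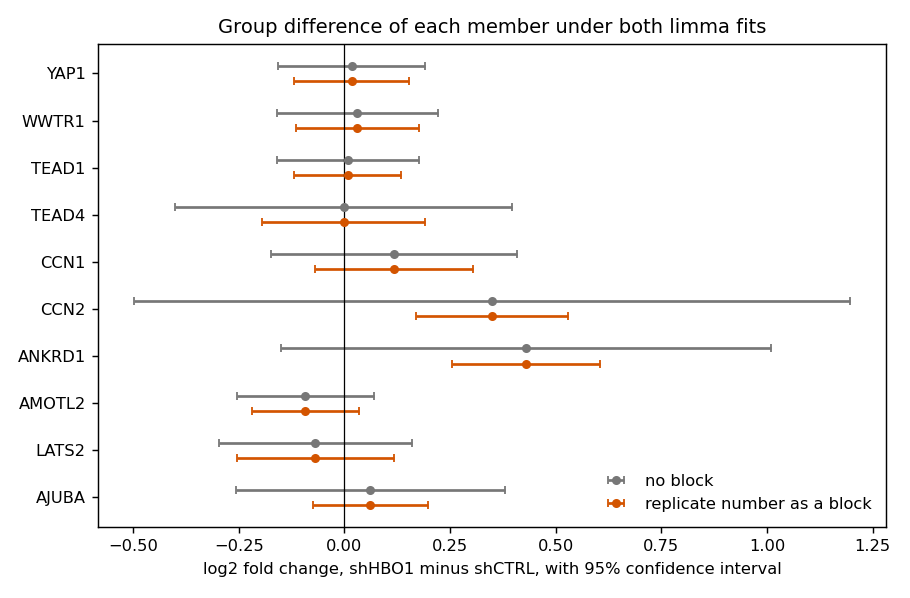
Log2 fold change of each gene, shHBO1 minus shCTRL (horizontal axis), with 95% confidence intervals from limma without a block (grey) and with the replicate number as a block (orange). The intervals of ANKRD1 (0.25 to 0.60) and CCN2 (0.17 to 0.53) lie above 0 with the block, and all others include 0 under both fits.

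Much of the spread of ANKRD1 and CCN2 followed the replicate number. With that number as a block the estimates stayed as above and the SE became 0.076 for ANKRD1 and 0.078 for CCN2, against 0.25 and 0.37 without it. Neither passed over all genes in limma (adjusted p = 0.108 for ANKRD1 and 0.181 for CCN2), so 0 of the 10 were called, where 0.125% of all genes were. At an unadjusted p under 0.05, ANKRD1 and CCN2 were 2 of 10, where 11.3% of all tested genes passed, and 5.39% of all tested genes did so with shHBO1 higher. edgeR with the block called 0 of 10, where it called 0.125% of all genes. DESeq2 with the block called both, at adjusted p = 6.1e-05 for ANKRD1 and 0.0018 for CCN2, where it called 0.975% of all genes. The call therefore depended on the tool. Being higher in shHBO1 in all 3 pairs was true of 2 of the 10 genes and of 15.3% of all tested genes, and being lower in all 3 was true of 1 of the 10 and of 17.1%.

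Leaving out the number 3 libraries of both groups removed most of the spread of both genes. Without a block, ANKRD1 then had a log2 fold change of 0.53 (SE 0.11, limma adjusted p = 0.138) and CCN2 had 0.45 (SE 0.076, limma adjusted p = 0.131). Leaving out single libraries moved ANKRD1 between 0.25 without shCTRL replicate 1 and 0.70 without shCTRL replicate 3. CCN2 moved between 0.05 without shHBO1 replicate 3 and 0.75 without shCTRL replicate 3.

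The difference between replicate numbers itself passed for 4 of the 10 genes, CCN2, ANKRD1, AJUBA and TEAD4, where 9.68% of all tested genes passed (limma F test in the blocked fit) and 4.85% passed with number 3 above number 1. Number 3 against number 1 gave log2 differences of 1.04 for CCN2 (SE 0.095) and 0.79 for ANKRD1 (SE 0.093). Their adjusted p in the F test over numbers 1, 2 and 3 together were 0.00158 and 0.00687. No p was computed for number 3 against number 1 alone. TEAD4 was also higher in number 3, by 0.49 (SE 0.10, F test adjusted p = 0.0451). AJUBA was lower, with −0.37 (SE 0.072, F test adjusted p = 0.0277). These 4 genes were picked by that F test. In each, the estimate for number 3 against number 1 was larger in size than that for shHBO1 against shCTRL. The same held for YAP1, WWTR1, TEAD1, CCN1 and LATS2, but not for AMOTL2. The share of all tested genes for which it held was not computed. The labels do not say what a replicate number stands for. The other 6 genes had F test adjusted p from 0.139 for CCN1 to 0.555 for LATS2.

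**Figure D3:**
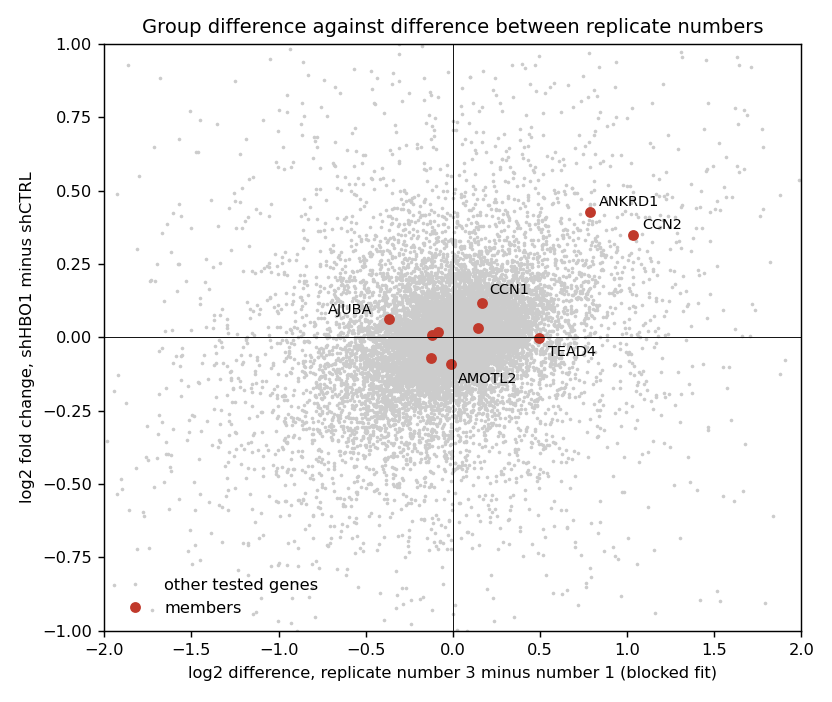
Log2 fold change, shHBO1 minus shCTRL (vertical axis), against the log2 difference of replicate number 3 minus number 1 (horizontal axis) for the 10 genes (red) and the other tested genes (grey). CCN2 (1.04, 0.35) and ANKRD1 (0.79, 0.43) lie to the upper right, and 205 genes fall outside the axes.

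Levels were compared between genes only per kilobase of transcript, as normalized counts per kilobase, with lengths from GENCODE release 29. CCN1 was highest at 27188 ± 4099 in shHBO1 and 24989 ± 2615 in shCTRL (SD, n = 3 each). CCN2 followed at 10795 ± 4208 in shHBO1 and 8784 ± 4592 in shCTRL. ANKRD1 averaged 5052 ± 1164 in shHBO1 and 3834 ± 1363 in shCTRL, AJUBA 4546 ± 730 in shHBO1 and 4364 ± 710 in shCTRL, and these neighbours did not differ beyond their spread in either group. AMOTL2 averaged 3119 ± 163 in shHBO1 and 3322 ± 168 in shCTRL, and in shCTRL its libraries fell within the range of ANKRD1.

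The factors were lower per kilobase than these targets. TEAD1 averaged 1555 ± 89.2 in shHBO1 and 1546 ± 43.7 in shCTRL. YAP1 averaged 1425 ± 290 in shHBO1 and 1590 ± 58.9 in shCTRL, within its spread of TEAD1. In shHBO1 replicates 1, 2 and 3 it had 1627, 1093 and 1555. In replicate 2 the transcript NM_001195045, of 1638 bases, stood at 0, while NM_001130145, of 5386 bases, had 1048 normalized counts. That per-kilobase value depends on how reads were divided among transcripts, which is unknown here. TEAD4 averaged 1011 ± 127 in shHBO1 and 1022 ± 233 in shCTRL. It was below YAP1 in shCTRL and overlapped it in shHBO1 only through YAP1 in replicate 2. LATS2 was the lowest, at 126 ± 6.59 in shHBO1 and 132 ± 8.08 in shCTRL. WWTR1 had no transcript of known length, and its mean lay between 515 and 1616 per kilobase in shHBO1 and between 505 and 1585 in shCTRL, for lengths of 5030 and 1603 bases.

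The YAP1 and WWTR1 sums hid uneven transcript values. Of 9 deposited YAP1 transcripts, NM_001195045 had 1155, 0 and 927 normalized counts in shHBO1 replicates 1, 2 and 3, against 1371, 1380 and 1579 in shCTRL replicates 1, 2 and 3. In the library where it stood at 0, NM_001130145 had 1048, against 172 and 312 in shHBO1 replicates 1 and 3 and 394, 40.3 and 271 in shCTRL. The gene total of that library, 3220, was within the range of the others. NM_001195044 had 750, 837 and 754 in shHBO1, against 658, 552 and 495 in shCTRL. The groups did not overlap for either NM_001195045, lower in shHBO1, or NM_001195044, higher in shHBO1, and the share of all transcripts without overlap was not computed. WWTR1 was split between NM_015472, with 1239, 1210 and 1856 in shHBO1 and 1652, 1985 and 1021 in shCTRL, and NM_001168280, with 1115, 1252 and 721 in shHBO1 and 654, 368 and 1588 in shCTRL. Where the first was high the second was low, and their order within a group was opposite. The sources used here do not say how reads were divided among transcripts, so transcript values are a description with no test.

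**Figure D4:**
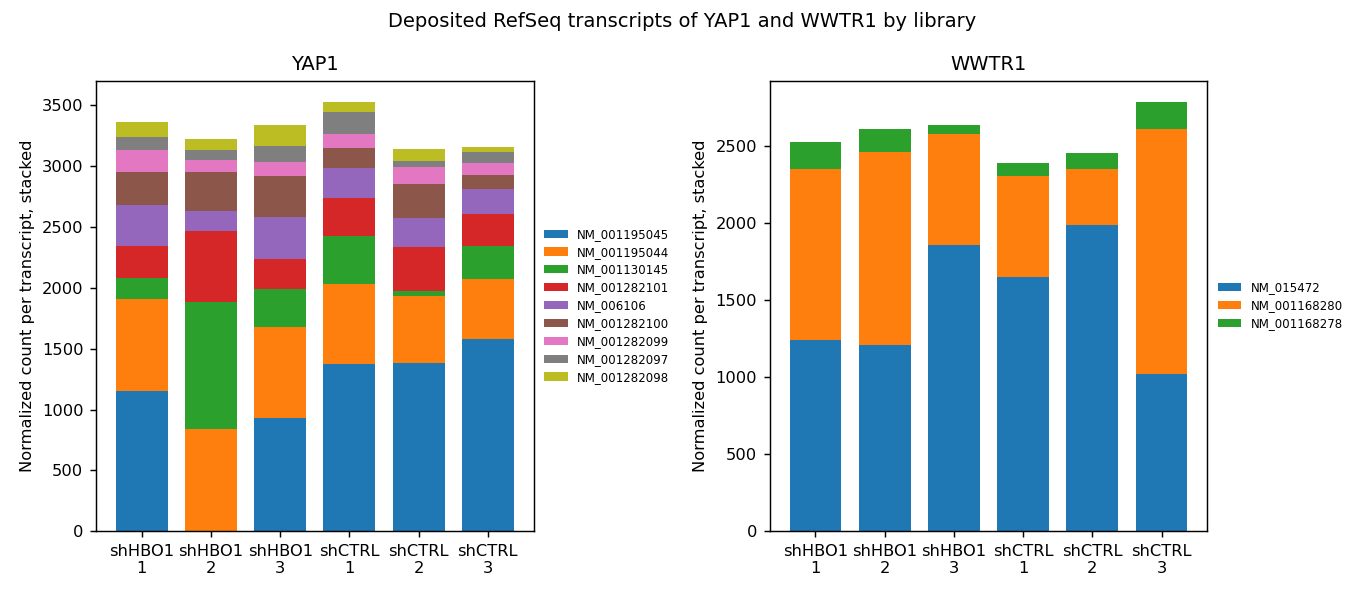
Normalized counts of each deposited RefSeq transcript of YAP1 (left) and WWTR1 (right), stacked by library, with the 3 shHBO1 libraries left of the 3 shCTRL libraries. The YAP1 totals run from 3136 to 3519, while the lowest segment, NM_001195045, runs from 0 to 1579.

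AJUBA, AMOTL2 and TEAD4 each had 1 main transcript of 3. NM_032876 made up 70.1 ± 10.6% of AJUBA in shHBO1 and 69.7 ± 2.87% in shCTRL. NM_016201 made up 88.7 ± 1.82% of AMOTL2 in shHBO1 and 89.3 ± 3.64% in shCTRL. NM_003213 made up 82.0 ± 4.66% of TEAD4 in shHBO1 and 84.0 ± 3.48% in shCTRL. CCN1, CCN2, ANKRD1, LATS2 and TEAD1 had 1 deposited transcript each. How reads that match several paralogs, such as the TEAD genes, were counted is unknown here.

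Of 24 genes of the Hippo kinase cassette and its upstream regulators, limma called 0 without or with the block, as did edgeR and DESeq2 on the recovered reads. At an unadjusted limma p under 0.05, 2 of 24 passed without the block and 6 with it, where 3.54% and 11.3% of all tested genes did. The groups did not overlap in 5 of the 24, with 2 higher and 3 lower in shHBO1, and in 8.93% of all tested genes. Their median log2 fold change was 0.0055, beside 0.00011 over all tested genes, with 13 estimates above 0 and 11 below. NF2, the junctional activator of the cascade, had 2126, 2237 and 2478 in shHBO1, against 2742, 2622 and 2946 in shCTRL. Its groups did not overlap, with a log2 fold change of −0.28 (SE 0.087, blocked limma adjusted p = 0.167). LATS1, the partner of LATS2, had 650, 643 and 629 in shHBO1, against 727, 720 and 754 in shCTRL, also without overlap (log2 fold change −0.20, SE 0.089, blocked limma adjusted p = 0.419). The protocadherin FAT4, at 22.4, 29.5 and 42.5 in shHBO1 and 12.2, 14.0 and 19.9 in shCTRL, was a low-count gene with a log2 fold change of 0.97 (SE 0.36).

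PTPN14, a phosphatase that binds YAP1 and is also a target, had 3450, 3433 and 3506 in shHBO1, against 2763, 2733 and 3425 in shCTRL. The groups did not overlap, and the log2 fold change was 0.23 (SE 0.099, blocked limma adjusted p = 0.313). Counting PTPN14, 17 further genes of a published YAP/TAZ target signature had a median log2 fold change of 0.07. Of their estimates 15 were above 0 and 2 below, where 7597 of all 15184 tested genes had estimates above 0. Limma called 0 of the 17 without or with the block, as did edgeR and DESeq2. At an unadjusted limma p under 0.05, 0 passed without and 1 with the block, where 3.54% and 11.3% of all tested genes did. The coagulation factor receptor F3 had a log2 fold change of 0.23 (SE 0.15), the guanine exchange factor DOCK5 0.20 (SE 0.15) and the membrane repair protein MYOF 0.10 (SE 0.079). In this signature 3 genes differed between replicate numbers, as did 9.68% of all tested genes.

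Among the other TEAD genes and VGLL cofactors, 5 in all, limma, edgeR and DESeq2 called 0, and 1 had an unadjusted p under 0.05 without and with the block. It was VGLL1, a TEAD-binding cofactor, at 7.48, 9.16 and 3.86 in shHBO1 and 28.4, 15.0 and 11.5 in shCTRL, lower without overlap but on few reads (log2 fold change −1.27, SE 0.50). DESeq2 with the block gave no adjusted p to VGLL1, nor to FAT4 and CD14 above, so it could not call them. Genes without an adjusted p count as not called in its share of all tested genes. TEAD2 had a log2 fold change of −0.04 (SE 0.22), TEAD3 had 0.11 (SE 0.096) and VGLL4 had 0.02 (SE 0.15). TEAD2 and VGLL3 differed between replicate numbers, as did 9.68% of all tested genes. TEAD2 was lower in number 3 than in number 1 (log2 difference −0.61) and VGLL3 higher (1.16).

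CCN1, CCN2 and ANKRD1 also respond to the serum response factor and to growth factors, so those genes were set beside them. Of 13 tested contractile genes of the serum response factor, 0 were called by limma or edgeR, without or with the block, and 1 without and 3 with it had an unadjusted limma p under 0.05. Of all tested genes, 3.54% without and 11.3% with the block had such a p. DESeq2 called 0 without the block and 2 with it, where it called 0.975% of all genes with the block. They were TAGLN (log2 fold change 0.38) and the tropomyosin TPM2 (0.26). Of the 13 estimates 12 were above 0, with a median of 0.08, where 7597 of all 15184 tested genes had estimates above 0. TPM2 had 4663, 5044 and 4447 in shHBO1, against 3880, 4121 and 3801 in shCTRL, without overlap (SE 0.076, blocked limma adjusted p = 0.158). Log2 fold changes were 0.12 (SE 0.069) for calponin CNN2, 0.13 (SE 0.086) for filamin FLNA and −0.14 (SE 0.10) for the myosin light chain MYL9.

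Immediate-early genes were tested in the same way, 12 of 14 having passed the filter. Limma and edgeR called FOS and EGR1 lower with the block (limma adjusted p = 0.0283 for FOS and 0.0300 for EGR1), where each tool called 0.125% of all genes. DESeq2 with the block called FOS, EGR1 and DUSP1, where it called 0.975% of all genes. Without the block limma, edgeR and DESeq2 called 0. An unadjusted limma p under 0.05 was reached by 1 of the 12 without the block and 5 with it, where 3.54% and 11.3% of all tested genes reached it. FOS had 1784, 1454 and 82.0 in shHBO1, against 3650, 3064 and 131 in shCTRL. The number 3 libraries, with the highest CCN2 and ANKRD1, thus had the lowest FOS in both groups. EGR1 had 1300, 2039 and 165 in shHBO1, against 3892, 3867 and 314 in shCTRL, in the same arrangement. Any part of these genes in the CCN2 and ANKRD1 values was not tested. JUN had a log2 fold change of 0.08 (SE 0.061), JUNB −0.18 (SE 0.19) and ATF3 −0.34 (SE 0.14).

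The genes with the most similar pattern over the 6 libraries were sought among 13228 genes with a mean of at least 50, by Pearson correlation of log2 values. The values are a description, since the 6 libraries share groups and replicate numbers. For CCN2 they were G0S2, CEP135, FSTL3, YWHAG and HOXD4, with correlations of 0.996 to 0.998. G0S2, an inhibitor of lipolysis, had 686, 686 and 1783 in shHBO1, against 422, 367 and 1647 in shCTRL, with the number 3 libraries on top in both groups. FSTL3, which binds activin, had 1957, 1973 and 2631 in shHBO1, against 1693, 1694 and 2545 in shCTRL. For ANKRD1 they were DUSP7, AGA, CRYBG1, GNB5 and TMEM200A, with correlations of 0.992 to 0.996. DUSP7, a phosphatase acting on ERK, had 4361, 4897 and 6454 in shHBO1, against 3161, 3525 and 5711 in shCTRL. For CCN1 they were RABGGTB, ZNF655, ATP5PF, NHP2 and COX6B1, with correlations of 0.981 to 0.994, each with its highest value in shHBO1 replicate 2.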

How the data were processed

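The authors deposited 1 table of normalized signal, named for DESeq2, with 58215 RefSeq transcript accessions and 6 columns. Per the submitters' processing notes, the tools were Bowtie 1.2.1.1, SAMtools and DESeq2, and the build hg19; their roles and order are not stated there. Each value was a whole multiple of 1 step per library, and dividing by it gave whole reads for 100% of values at a tolerance of 0.01 read. Names came from RefSeq (GRCh38.p14) for 57191 accessions and GENCODE release 29 for 671. The 353 without a name, with 0.0840 to 0.0901% of reads, were left out. A read counted for several transcripts would enter gene sums more than once.

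Log2(normalized count + 1) values of genes with a mean of at least 10 were fitted with limma-trend (limma 3.58.1, R 4.3.3), with Benjamini-Hochberg adjustment over all 15184 genes, a threshold of 0.05 and log2 fold changes of shHBO1 minus shCTRL. Fold changes on this scale understate changes of low genes. Alternatives used edgeR 4.0.16 (quasi-likelihood test) and DESeq2 1.42.0 on the recovered reads, other scalings, filters and pseudocounts, a GC content and length correction, the most abundant transcript, and libraries left out. Limma without and with the block, and edgeR and DESeq2 without it, were tried on simulated counts without a difference between replicate numbers. The fits of edgeR and DESeq2 with the block were not tried in this way. Members and gene lists were chosen with earlier results of these data known. Besides the 10 members, the text names the 4 genes of each list with the smallest p, and those called with the block. It also names the 5 genes most like ANKRD1, CCN1 and CCN2. TAGLN, DUSP1, VGLL3, WT1, DCN and PDGFRA were named after their values were seen.

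Deviations from the group means of same-numbered libraries correlated at 0.32, 0.20 and 0.48 across genes for numbers 1, 2 and 3, all above 0.1. The numbers were therefore treated as pairing the libraries, from these data and not from the labels. Correlations across different numbers ran from −0.40 to 0.21. The highest, 0.206 for shHBO1 replicate 1 with shCTRL replicate 2, was above the 0.195 of the libraries numbered 2. These values thus set number 3 apart and do not settle which libraries numbered 1 and 2 belong together. The blocked tests used the same values from which the pairing was taken.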

Additional observations from a re-analysis of the deposited data

How the results depend on the processing

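KAT7 passed under all 20 alternatives, with log2 fold changes from −2.16 to −1.89. Without the replicate block 1 gene passed, and 1 with each library left out in turn. With the replicate block 19 genes passed in limma and 19 in edgeR, 148 in DESeq2 and 31 with the correction for GC content and length. DESeq2 without the block called 19. For these counts the cause was not tested. Of the 10 YAP/TEAD genes, 0 passed under 19 alternatives and 2 (ANKRD1 and CCN2) under DESeq2 with the replicate block. The block changed no other call among the 10.

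ANKRD1, CCN2, AMOTL2 and LATS2 kept their sign under all 20 alternatives, with log2 fold changes from 0.25 to 0.70, 0.05 to 0.75, −0.13 to −0.06 and −0.11 to −0.03. Estimates near 0 changed sign without passing. With 1 library left out they ran from −0.0123 to 0.0710 for YAP1, −0.0121 to 0.0978 for WWTR1, −0.0249 to 0.0551 for TEAD1, −0.12 to 0.18 for TEAD4, −0.0038 to 0.19 for CCN1 and −0.080 to 0.16 for AJUBA. Without the pair numbered 3, YAP1 had −0.0150 and TEAD4 0.0966. TEAD4 had 0.0049 with TMM scaling, 0.00028 with quantile normalization and 0.0447 with the GC content and length correction. On the most abundant transcript YAP1 had −3.82, where NM_001195045 stood at 0 in shHBO1 replicate 2, and WWTR1 had −0.0891. The 4 calls between replicate numbers stayed 4 with the correction for GC content and length. With 3 libraries a group, the interval of CCN2 without the block ran from −0.50 to 1.197 (limma).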
